A study of Mus musculus with 9 samples.

Results

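The genes described here encode, in the nucleus, the subunits of 3 protein complexes of the inner mitochondrial membrane: complex III (names starting with Uqcr), complex IV or cytochrome c oxidase (Cox4 to Cox8) and the ATP synthase (Atp5). Members were the rows of the deposited gene table whose names start in this way, leaving out 6 pseudogenes, with a mean of at least 10 exon-based reads over 9 libraries. Of 49585 genes in the table, 49 had such a name, 43 were left without the pseudogenes and 38 reached the read minimum: 8 of complex III, 13 of complex IV and 17 of the ATP synthase. The members closest above the minimum were Cox6b2 and Cox7a1, with means of 10.1 and 10.2 reads, and the gene closest below it was Cox4i2 with 5.00. All 38 members passed the filter for testing. Cox7a2l, a factor of respiratory supercomplexes, and Atp5s and Atp5sl, which are not structural subunits of the ATP synthase, were included by name alone.

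RNA sequencing was done on brain tissue of wild-type male C57BL/6J mice 8 to 15 weeks old, in 3 groups of 3 libraries. CTRL mice received no sevoflurane and were free to move for 120 min, 0.7 MAC mice were kept at 0.7 MAC sevoflurane for 120 min, and 2.0 MAC mice were given sevoflurane at 2.0 MAC during the first 30 min and at 0.7 MAC during the following 90 min. Doses of inhaled anesthetics are stated in MAC (minimum alveolar concentration). The anesthetized mice breathed pure oxygen, and the gas breathed by CTRL mice is not given in these sources. In the study 0.7 MAC served as the model of eupnea, or normal breathing, and 2.0 MAC as the model of gasping-like respiration. The labels call the tissue hypothalamus, the study's methods describe what remained after cortex, cerebellum and olfactory bulb were removed, and the extraction text names whole brain, so the extent of the pieces is uncertain. Exon-based reads numbered 5321491 to 7178568 per library.

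Complex III passes electrons from reduced coenzyme Q to cytochrome c, complex IV passes them from cytochrome c to oxygen, and both move protons across the membrane. The protons flow back through the membrane part of the ATP synthase and turn its c ring and central stalk. This rotation drives ATP formation in its F1 head. A few core subunits of each complex are encoded in mitochondrial DNA and the remainder in the nucleus, and neurons depend on this pathway for most of their ATP.

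Nuclear genes of the respiratory chain are known for promoters with sites for NRF1, ETS factors such as GABP, and YY1. Windows from 250 bases before to 50 after a start site were taken from RefSeq (GRCm38.p6) and matched 32 of the 38 members, the others being Atp5a1, Cox4i1, Cox6c, Uqcrb, Uqcrc2 and Uqcrq. On either strand, the NRF1 motif (the capitals in Cox6a1, Atp5h and Atp5k below that start with GCGCA, with any base in the middle) was found in 8 of the 32, or 25%, against 5.19% of 27025 genes with a window. CCGGAAG (ETS) was found in 10, or 31.2%, against 9.93% of all genes, and AAGATGGCG (YY1) in 3, or 9.38%, against 1.64%. No motif searched is part of another. A match describes letters in this window and is not a measured site. Of the 7 matched members that passed the test in any comparison below, 0 held the NRF1 motif, 2 the ETS motif (Atp5j and Cox6b1) and 2 the YY1 motif (Atp5j and Atp5j2). The 150 bases before the start of 4 members follow, 5′ to 3′ on the strand of the gene, to show these motifs together (Cox6a1 and Atp5h) or with 1 of them in these bases (Cox6b1 and Atp5k). Capitals mark a motif, with CTTCCGG as the reverse complement of the ETS motif. Cox6b1, which passed the test, lies on the minus strand at chr7:30626115-30626264, Cox6a1 on the minus strand at chr5:115348959-115349108, Atp5h on the minus strand at chr11:115419920-115420069 and Atp5k on the minus strand at chr5:108434400-108434549.
Cox6b1: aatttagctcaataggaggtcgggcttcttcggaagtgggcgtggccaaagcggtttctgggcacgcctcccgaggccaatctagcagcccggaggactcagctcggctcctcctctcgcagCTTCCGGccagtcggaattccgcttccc
Cox6a1: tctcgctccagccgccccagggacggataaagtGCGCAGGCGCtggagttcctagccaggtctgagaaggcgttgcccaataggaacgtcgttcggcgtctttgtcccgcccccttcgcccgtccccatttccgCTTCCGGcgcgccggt
Atp5h: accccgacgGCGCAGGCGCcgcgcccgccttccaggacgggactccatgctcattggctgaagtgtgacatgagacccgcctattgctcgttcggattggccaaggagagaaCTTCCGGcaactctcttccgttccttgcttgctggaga
Atp5k: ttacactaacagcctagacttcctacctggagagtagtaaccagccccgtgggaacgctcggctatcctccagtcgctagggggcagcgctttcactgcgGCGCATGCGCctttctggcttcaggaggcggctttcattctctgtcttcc
Cox6b1 held 1 ETS motif starting 28 bases before the start. Cox6a1 held the NRF1 motif at 117 and the ETS motif at 16 bases before it, and Atp5h held them at 141 and 38 bases. Atp5k held the NRF1 motif 50 bases before the start, and its whole window also held 1 ETS motif outside the bases printed. The whole window of Cox6a1 held 2 NRF1 motifs, of which 1 lies in the bases printed.

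Levels between genes were compared per length, as the authors' RPKM averaged over the 9 libraries. The F1 beta subunit Atp5b and the F1 alpha subunit Atp5a1 led the ATP synthase with 77.0 and 75.5 RPKM, and Atp5s was lowest with 2.74. Cox8a led complex IV with 76.1 RPKM, ahead of Cox4i1 with 51.7 and Cox6b1 with 50.8. Complex III was more even, with levels between 8.42 RPKM for Uqcrq and 24.97 for Uqcr10. These ranks depend on the length and the reads used. RPKM takes all exon reads, those with several matches included, and divides by all annotated exons merged. Exon-based reads leave out part of them: Cox4i1 had 11075 over the 9 libraries, against 13660 exon reads in all. Exon-based CPM per kilobase of the main coding mRNA put Cox4i1 (257) ahead of Cox8a (219), Cox6c (209) and Cox6b1 (172). By that measure Uqcrh (135) was ahead of Uqcr10 (99.0) in complex III, and Atp5b (503) was well above Atp5a1 (283).

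Complex IV has subunits with separate isoforms for tissues, and here the common isoform was the abundant one in every pair. Cox4i1 had 51.7 RPKM and Cox4i2, its lung-enriched partner, 0.334. Cox6a1 had 45.1 RPKM and the heart and muscle isoform Cox6a2 0.875. Cox6b1 had 50.8 RPKM and the testis isoform Cox6b2 0.478. Heart and muscle isoforms were as low in the other pairs, at 1.02 RPKM for Cox7a1 beside 26.6 for Cox7a2, and at 0.447 for Cox8b beside 76.1 for Cox8a. Cox7b2 averaged 1.00 read per library, and Cox8c had 0 of 58031756 exon-based reads, which allows up to 3 reads or 0.0517 CPM and covers counting error only. The library of 0.7 MAC replicate 2 stood apart in its skeletal and heart muscle markers, whose summed level was 197 CPM there and 11.0 to 15.7 CPM in the other 8 libraries. Cox7a1 had 15 reads in that library and 5 to 13 in the others, while Cox6a2 had 3 against 1 to 4 and Cox8b 3 against 1 to 6. The part of muscle RNA in these 3 genes was not tested. For the c ring, the authors' RPKM was 19.8 for Atp5g3, 7.75 for Atp5g2 and 6.03 for Atp5g1, whose annotated exons merge to 4912 bases.

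Reads of 12 members were shared with other places in the genome to a degree that makes their counts uncertain: under 90% of their exon reads were unique. The unique share was 2.75% for Atp5g2, 8.88% for Cox7c, 37.5% for Atp5h, 49.8% for Atp5l, 55.7% for Uqcrb, 67.9% for Cox5b and 69.2% for Atp5g1, and 76.3% to 89.0% for Atp5o, Cox4i1, Atp5f1, Cox7a2l and Uqcrc2. Uqcrb, Cox5b and Cox4i1 are among the members that passed a test below. In unique exon reads alone the log2 fold change of Uqcrb between 2.0 MAC and CTRL was 0.28 and no longer passed, while Cox5b and Cox4i1 still did.

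In the 2.0 MAC group most of these genes were slightly more abundant than in the CTRL group: 33 of 38 had a positive log2 fold change (86.8%, against 50.4% of all tested genes), with a median of 0.19 (14.2% higher), against a median of 0.00 over all 14140 tested genes. At an adjusted p under 0.05, 8 members rose (21.1%, against 3.36% of all tested genes) and 0 fell (against 6.42%). Beside that 0, edgeR's quasi-likelihood test gave 1 member lower (2.63%, against 12.5% of all genes) and 18 higher (47.4%, against 10.2%) at an unadjusted p under 0.05. DESeq2 called 5 members higher and 0 lower, against 331 and 755 of all 14140 tested genes. By complex, 3 of 8 rose in complex III (Uqcr10, Uqcrb and Uqcrq), 4 of 13 in complex IV (Cox4i1, Cox5b, Cox7a2 and Cox7b) and 1 of 17 in the ATP synthase (Atp5j2). None of the 38 passed with a change of at least 2-fold, the study's further threshold, which 0.382% of all tested genes passed as higher and 0.976% as lower. The count of 8 moved with single libraries. It was 1 without 2.0 MAC replicate 1 or 2.0 MAC replicate 2, 4 without 2.0 MAC replicate 3 or CTRL replicate 1, and 2 without CTRL replicate 2.

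**Figure D1:**
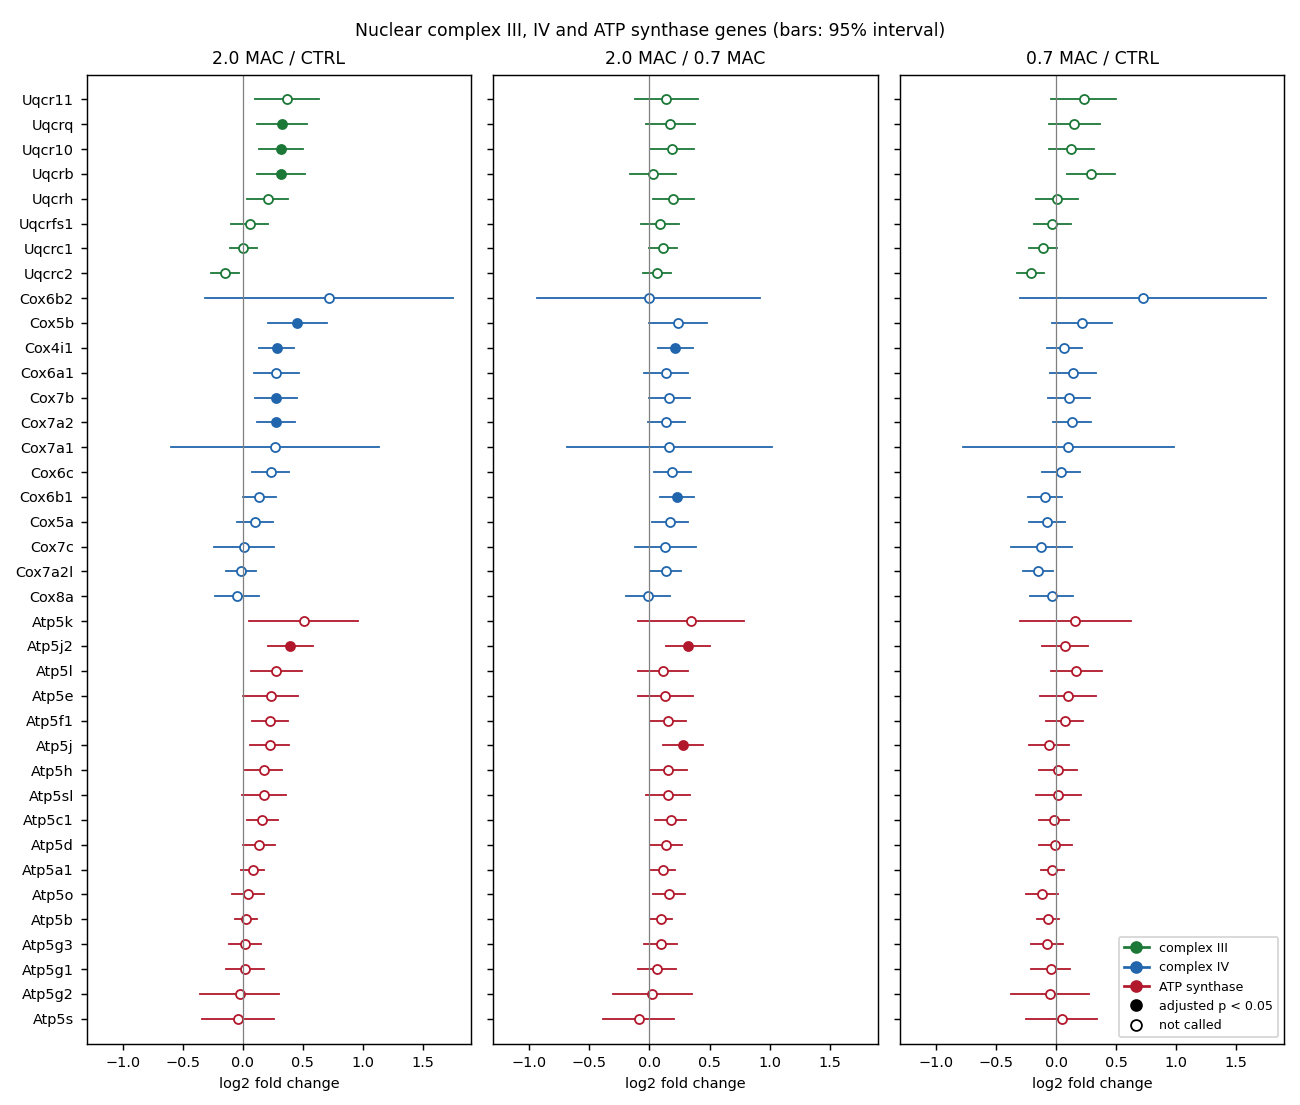
Log2 fold change of each of the 38 members in the 3 comparisons (x axis; points, edgeR estimates; bars, 95% intervals; filled, adjusted p under 0.05), grouped by complex and ordered by the comparison of 2.0 MAC with CTRL. Most points lie right of 0 in both comparisons of 2.0 MAC (33 and 35 of 38), and points of 0.7 MAC against CTRL lie on both sides (21 and 17).

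Atp5j2, membrane subunit f of the ATP synthase, had the smallest adjusted p of all members. Its level was 31.5, 30.7 and 36.7 CPM in CTRL, 36.5, 34.6 and 32.9 CPM in 0.7 MAC and 41.4, 43.7 and 44.7 CPM in 2.0 MAC. CPM here are exon-based reads scaled to the size of each library after TMM. Each 2.0 MAC library was above all 6 others, while 0.7 MAC and CTRL overlapped. The log2 fold change was 0.39 (SE 0.09, adjusted p = 0.00941) for 2.0 MAC against CTRL and 0.32 (SE 0.09, adjusted p = 0.0198) for 2.0 MAC against 0.7 MAC.

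Cox4i1, the common isoform of a subunit that takes part in the control of complex IV by ATP, was the other member that passed in both comparisons. It had 178, 165 and 185 CPM in CTRL, 201, 186 and 167 CPM in 0.7 MAC and 225, 214 and 204 CPM in 2.0 MAC. The 2.0 MAC libraries again lay above the other 6, by a small margin over 0.7 MAC replicate 1. Its log2 fold change was 0.28 against CTRL (SE 0.07, adjusted p = 0.0155) and 0.21 against 0.7 MAC (SE 0.07, adjusted p = 0.0461).

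Cox5b, a zinc-binding subunit on the matrix side of complex IV, had the largest fold change of the called members. It had 49.1, 51.9 and 66.0 CPM in CTRL, 69.6, 72.1 and 52.4 CPM in 0.7 MAC and 75.3, 73.9 and 79.5 CPM in 2.0 MAC. CTRL replicate 3 was the high library of its group and 0.7 MAC replicate 3 the low one, and 2.0 MAC lay above both groups. The log2 fold change against CTRL was 0.45 (SE 0.12, adjusted p = 0.0209), and against 0.7 MAC it was 0.24 (SE 0.11, adjusted p = 0.196).

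Among the small membrane subunits of complex IV, Cox7a2 had 81.2, 83.0 and 79.4 CPM in 2.0 MAC, against 69.0, 65.0 and 67.4 CPM in CTRL, without overlap. Its log2 fold change was 0.27 (SE 0.07, adjusted p = 0.0265). Cox7b, from the X chromosome, had 118, 114 and 101 CPM in 2.0 MAC, against 92.6, 92.4 and 89.6 CPM in CTRL, with a log2 fold change of 0.28 (SE 0.08, adjusted p = 0.0421). For both genes the 0.7 MAC libraries spread widely and overlapped 2.0 MAC: Cox7a2 had 80.6, 73.4 and 66.9 CPM and Cox7b 108, 103 and 85.6 CPM, with replicate 3 lowest each time.

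The 3 called genes of complex III encode small supernumerary subunits without a redox center. Uqcr10 had 46.2, 49.2 and 49.0 CPM in 2.0 MAC, against 37.3, 37.3 and 41.2 CPM in CTRL. Uqcrq had 50.6, 50.8 and 51.1 CPM in 2.0 MAC, against 44.7, 38.2 and 38.7 CPM in CTRL, and Uqcrb had 39.1, 37.3 and 36.6 CPM in 2.0 MAC, against 32.9, 28.5 and 29.2 CPM in CTRL. In none of these genes did the groups overlap. The log2 fold changes were 0.32 for Uqcr10 (SE 0.09, adjusted p = 0.0293), 0.33 for Uqcrq (SE 0.10, adjusted p = 0.0424) and 0.32 for Uqcrb (SE 0.09, adjusted p = 0.0430). Uqcrb differed from the other 2 in the 0.7 MAC libraries, which at 36.6, 40.8 and 33.2 CPM lay above every CTRL library.

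**Figure D2:**
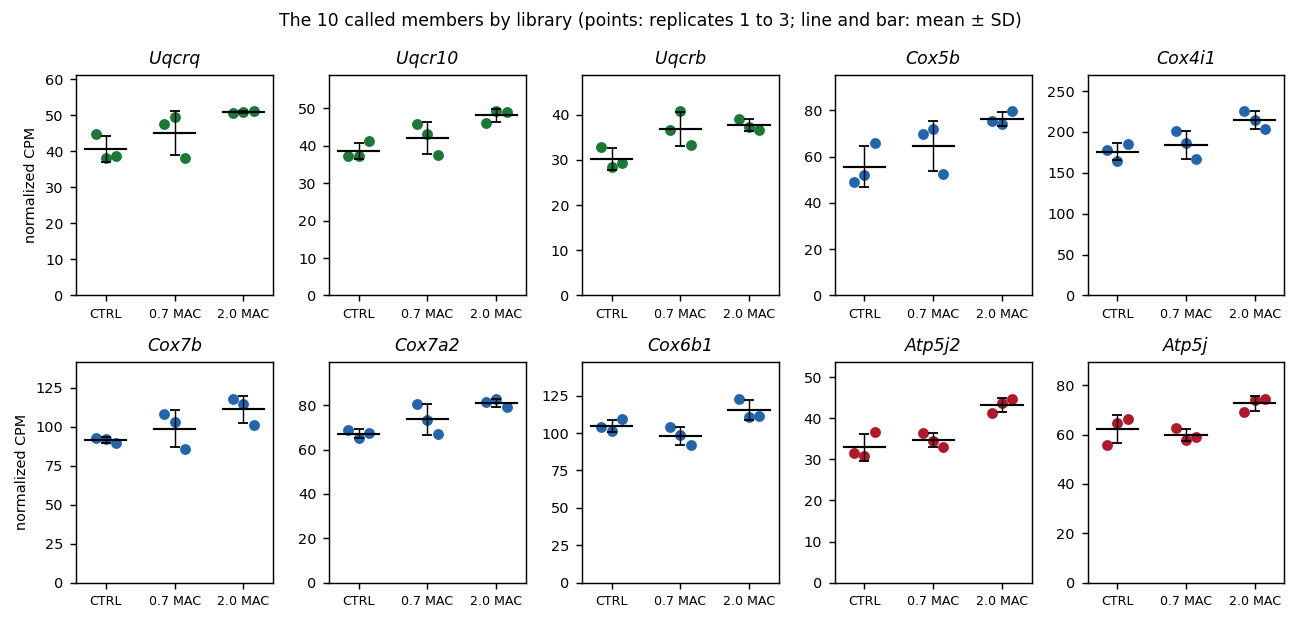
Normalized CPM (y axis, from 0) of the 10 members that passed the test in any comparison, in CTRL, 0.7 MAC and 2.0 MAC (x axis); points are libraries, lines means and bars SD (n = 3 each). For Atp5j2, Cox4i1, Cox5b, Uqcr10, Uqcrq, Cox6b1 and Atp5j all 3 libraries of 2.0 MAC lie above the other 6.

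Genes of the catalytic and core subunits, of the c ring and Cox8a lay on both sides of 0 in the comparison of 2.0 MAC with CTRL. Those named here did not pass the adjusted threshold, and of the catalytic and core genes named only Uqcrc2 was negative. Atp5b, the catalytic F1 beta subunit, averaged 990 ± 3.51 CPM in 2.0 MAC and 972 ± 26.2 CPM in CTRL (SD, n = 3 each), a log2 fold change of 0.03 with a 95% interval of -0.06 to 0.12. Atp5a1, the F1 alpha subunit, had 758, 721 and 713 CPM in 2.0 MAC, against 674, 702 and 695 CPM in CTRL (log2 fold change 0.08, SE 0.05, adjusted p = 0.317). Atp5c1, the F1 gamma subunit of the central stalk, had 124, 116 and 118 CPM in 2.0 MAC, against 101, 107 and 111 CPM in CTRL (0.16, SE 0.06, adjusted p = 0.109). For both genes each 2.0 MAC library was above all CTRL libraries. Uqcrc1, a core protein of complex III, averaged 185 ± 7.76 CPM in 2.0 MAC and 184 ± 2.78 CPM in CTRL (0.00, interval -0.11 to 0.12). Uqcrfs1, the iron-sulfur protein that carries electrons in complex III, had a log2 fold change of 0.06 (interval -0.10 to 0.21). Uqcrc2, the other core protein, had 142, 142 and 135 CPM in 2.0 MAC, against 150, 159 and 156 CPM in CTRL, and was the single member whose libraries were all lower in 2.0 MAC (log2 fold change -0.15, SE 0.05, adjusted p = 0.102). Cox8a was at -0.05 (interval -0.23 to 0.13), and the c ring genes Atp5g1, Atp5g2 and Atp5g3 were at 0.02, -0.03 and 0.02. These genes, apart from Atp5b, Cox8a and the c ring trio, were singled out after their values were seen.

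The study used 2.0 MAC and 0.7 MAC as its models of gasping-like respiration and eupnea. Both groups spent the last 90 min at 0.7 MAC, so their treatments differ by the dose of the first 30 min. Their libraries also differed in markers of brain regions, given below. The parts of dose and of tissue content in the members' differences were not tested. Between 2.0 MAC and 0.7 MAC, 35 of 38 members had a positive log2 fold change (92.1%, against 50.7% of all tested genes). The median was 0.14 (10.1% higher), against 0.00 over all tested genes. Called members were 4 higher (10.5%, against 5.98% of all tested genes) and 0 lower (against 8.73%). At an unadjusted p under 0.05 edgeR gave 16 higher (42.1%, against 12.3% of all genes) and 0 lower (against 14.4%). DESeq2 called 3 members higher and 0 lower, against 634 and 1028 of all 14140 tested genes. At 2-fold or more 0 members passed here too, against 0.127% of all tested genes higher and 1.32% lower. Besides Atp5j2 and Cox4i1, the called genes were Atp5j and Cox6b1. Atp5j, a subunit of the stalk that holds the F1 head in place, had 69.2, 74.1 and 74.6 CPM in 2.0 MAC, against 62.7, 57.7 and 59.1 CPM in 0.7 MAC. Cox6b1, a subunit facing the intermembrane space, had 123, 111 and 112 CPM in 2.0 MAC, against 104, 98.5 and 92.1 CPM in 0.7 MAC. All 3 libraries of 2.0 MAC were higher for both genes, with log2 fold changes of 0.28 for Atp5j (SE 0.08, adjusted p = 0.0211) and 0.23 for Cox6b1 (SE 0.07, adjusted p = 0.0279). The count of 4 became 0 without 0.7 MAC replicate 3 or 2.0 MAC replicate 2, 1 without 0.7 MAC replicate 2, and 2 without 2.0 MAC replicate 1 or 2.0 MAC replicate 3.

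The catalytic genes were on the positive side of this comparison. Atp5b had 987, 994 and 991 CPM in 2.0 MAC, against 940, 919 and 921 CPM in 0.7 MAC, and Atp5a1 had 758, 721 and 713 CPM against 696, 670 and 660 CPM. The groups did not overlap for either gene, and neither passed the adjusted threshold (log2 fold change 0.10, SE 0.04, adjusted p = 0.159 for Atp5b and 0.11, SE 0.05, adjusted p = 0.119 for Atp5a1). In all, 19 members had every 2.0 MAC library above every 0.7 MAC library (50%, against 14.9% of all tested genes) and 0 had the reverse (against 16.4%). Against CTRL the same count was 19 higher (against 13.1%) and 1 lower (against 15.2%). In 14 members every 2.0 MAC library was above all 6 others (36.8%, against 6.41% of all tested genes), and in 0 members below them (against 9.13%).

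Between 0.7 MAC and CTRL, 21 members were positive (55.3%, against 49.2% of all tested genes) and 17 negative, with a median of 0.02 and log2 fold changes of -0.21 to 0.72. Called members were 0 higher (against 0.884% of all tested genes) and 0 lower (against 0.743%) by edgeR's quasi-likelihood test. Its unadjusted p was under 0.05 for 1 higher member (against 8.18% of all genes) and 2 lower members (against 7.28%). DESeq2 called 0 members in either direction, against 123 higher and 104 lower of all 14140 tested genes. With the 2-fold threshold 0 passed as well, against 0.276% of all tested genes higher and 0.0495% lower. The smallest adjusted p was 0.0616 for Uqcrc2, which had 137, 128 and 136 CPM in 0.7 MAC, against 150, 159 and 156 CPM in CTRL (log2 fold change -0.21, SE 0.05). It passed as lower without CTRL replicate 1. Uqcrc1, Cox7a2l, Atp5b and Atp5o were the other members with all 0.7 MAC libraries below CTRL (5 in all, 13.2%, against 9.25% of all tested genes), and Uqcrb was the single one above (2.63%, against 8.80%). The comparisons of 2.0 MAC with CTRL and of 0.7 MAC with CTRL share their control libraries, so their log2 fold changes are given side by side only, in that order: Uqcrq was at 0.33 and 0.15, Uqcrb at 0.32 and 0.29, Cox5b at 0.45 and 0.21, and Atp5j2 at 0.39 and 0.07. The testis isoform Cox6b2 was at 0.72 in both, from 2 to 17 reads per library, with intervals of -0.32 to 1.75 and -0.30 to 1.75.

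Added over the members of a complex, the CPM showed the same picture in each library. Complex IV summed to 1025, 976 and 1077 CPM in CTRL, 1113, 1051 and 967 CPM in 0.7 MAC and 1185, 1169 and 1149 CPM in 2.0 MAC. The sum for complex III was 618 ± 14.6 CPM in CTRL, 602 ± 14.5 CPM in 0.7 MAC and 652 ± 11.4 CPM in 2.0 MAC (SD, n = 3 each). For the ATP synthase it was 2592 ± 77.5 CPM in CTRL, 2531 ± 63.1 CPM in 0.7 MAC and 2752 ± 39.2 CPM in 2.0 MAC. In all 3 complexes each 2.0 MAC library was above the other 6, and 0.7 MAC overlapped CTRL. The sum of the ATP synthase rests mostly on Atp5b and Atp5a1, so it weighs other genes than the medians do.

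The median log2 ratio of the 38 members to the CTRL mean was -0.05, -0.03 and 0.07 in the CTRL libraries, 0.07, 0.07 and -0.07 in 0.7 MAC and 0.21, 0.14 and 0.14 in 2.0 MAC. CTRL replicate 3 was thus high for its group and 0.7 MAC replicate 3 low. By complex, the median log2 fold change for 2.0 MAC against CTRL was 0.26 in complex III, 0.27 in complex IV and 0.16 in the ATP synthase, and for 2.0 MAC against 0.7 MAC it was 0.13, 0.17 and 0.14. Other gene sets with many small subunits had medians on the same side. Nuclear complex I genes (35 tested) had medians of 0.18 for 2.0 MAC against CTRL and 0.13 for 2.0 MAC against 0.7 MAC, with 5 and 2 called higher and 0 lower. Cytosolic ribosomal protein genes (78 of 85 tested) had medians of 0.11 and 0.09, with 4 and 2 called higher and 0 lower. Of all tested genes, 3.36% and 5.98% were called higher and 6.42% and 8.73% lower. The called counts of these sets are not read as differing from those shares. The difference between these sets and the members was not tested.

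**Figure D3:**
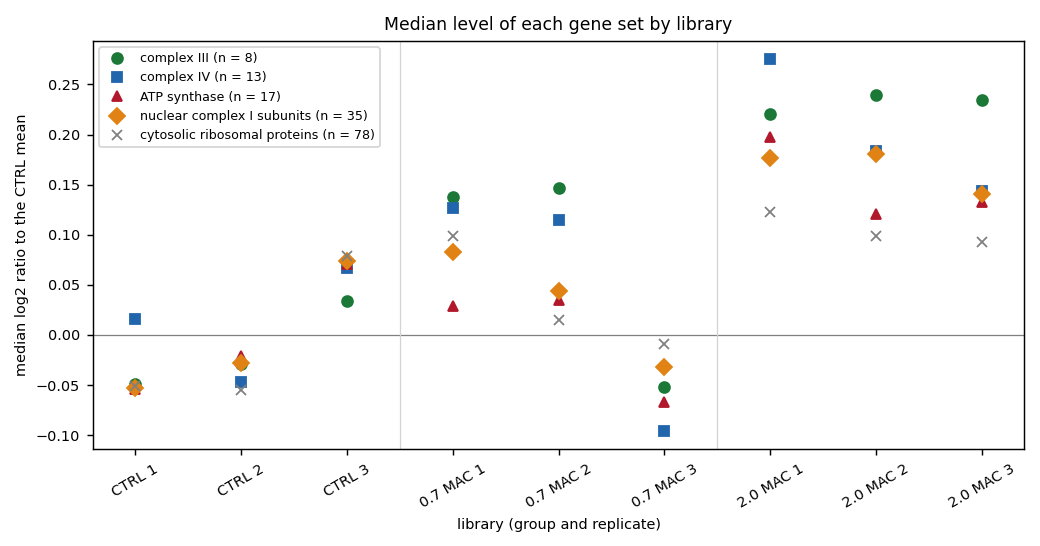
Median log2 ratio to the CTRL mean (y axis) of each gene set in each of the 9 libraries (x axis, group and replicate); symbols are gene sets, including nuclear complex I and cytosolic ribosomal protein genes. All 5 sets lie between 0.09 and 0.28 in the 2.0 MAC libraries, with CTRL replicate 3 high and 0.7 MAC replicate 3 low within their groups.

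The length of the mRNA moved with these differences. With lengths from the main coding transcript of each gene in GENCODE M21, 14 members had an mRNA under 600 bases, and their median log2 fold change for 2.0 MAC against CTRL was 0.27. The 122 other tested genes of that length had a median of 0.20, and 83.6% of them were positive. Members of 600 to under 1000 bases (n = 11) had a median of 0.17, against 0.10 for 545 other genes, and members of 1000 to under 2000 bases (n = 10) had 0.04, against 0.03 for 2658 other genes. The 3 members of 2000 bases or more were all positive, with a median of 0.08, against -0.01 for 10147 other genes. Between 2.0 MAC and 0.7 MAC the medians under 600 bases were 0.14 for members and 0.12 for other genes, and from 600 to under 1000 bases 0.17 and 0.09. From 1000 to under 2000 bases they were 0.12 and 0.04, and at 2000 bases or more 0.11 (3 of 3 members positive) and -0.01, so in this comparison the medians of the longer members were close to that of the shortest. Across genes, which are not independent replicates, Spearman's rho between length and log2 fold change was -0.39 over the 38 members and -0.13 over 13472 other genes for 2.0 MAC against CTRL, and -0.17 and -0.13 for 2.0 MAC against 0.7 MAC. For 0.7 MAC against CTRL, where 0 members were called, rho was -0.37 over the members and 0.02 over the other genes. Medians there were 0.12 for members and 0.07 for other genes under 600 bases. At 2000 bases or more they were -0.03 and -0.0035. The part of length in the members' differences was not tested beyond these values.

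**Figure D4:**
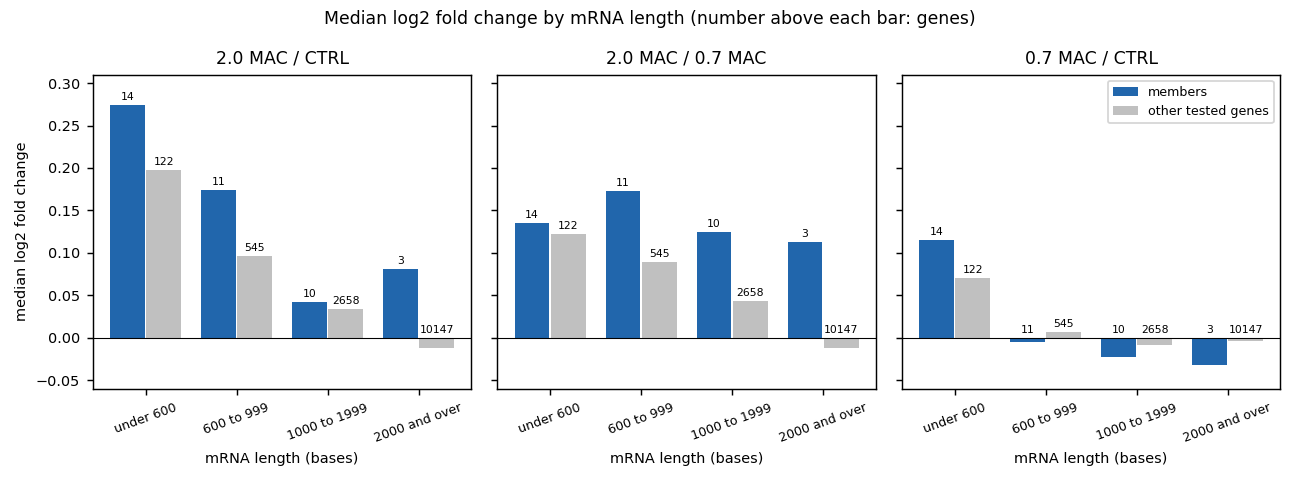
Median log2 fold change (y axis) by mRNA length in bases (x axis) for members and other tested genes in the 3 comparisons; the number above each bar is the number of genes. Against CTRL the 2.0 MAC medians under 600 bases are 0.27 for members and 0.20 for other genes, and at 2000 bases or more 0.08 (3 members) and -0.01, while against 0.7 MAC the members' medians lie between 0.11 and 0.17 in every bin. For 0.7 MAC against CTRL the medians under 600 bases are 0.12 and 0.07, and at 2000 bases or more -0.03 and -0.0035.

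Reads in introns, which come mostly from RNA not yet spliced, were tested in the same way. Their share of all gene reads was 58.9% to 59.1% in the 2.0 MAC libraries, below every other library. It was 60.0% to 62.0% in 0.7 MAC and 59.6% to 60.9% in CTRL. The part of this difference over all genes in the members' exon and intron values was not tested. Of the 38 members, 35 could be tested, with a median of 108 intron reads per library. The median log2 fold change in introns was -0.04 for 2.0 MAC against CTRL, with 15 members positive and 20 negative, where the exon-based reads of the same members gave 0.17. For 2.0 MAC against 0.7 MAC the median was -0.0030, with 17 positive and 18 negative, against 0.14 in exon-based reads. None of the 35 was called in any comparison by edgeR. Of 16142 genes tested in introns, 667 were called higher and 955 lower between 2.0 MAC and CTRL. The counts were 492 and 615 between 2.0 MAC and 0.7 MAC, and 283 and 399 between 0.7 MAC and CTRL. The 0 among the members is not read as differing from these counts over all genes. At an unadjusted p under 0.05, 1 member was higher and 1 lower between 2.0 MAC and CTRL. Between 2.0 MAC and 0.7 MAC it was 0 in either direction, and the shares over all genes were not taken. The intron values were less precise, with a median SE of 0.17 against 0.08 for exon-based reads. Atp5j2 had 109 to 170 intron reads per library and a log2 fold change of -0.23 in introns against 0.39 in exons for 2.0 MAC against CTRL. The annotated span of Atp5o, on chr16 from 91684398 to 91931687, reaches over other genes, so its 1211 to 3160 intron reads per library are not clearly its own.

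**Figure D5:**
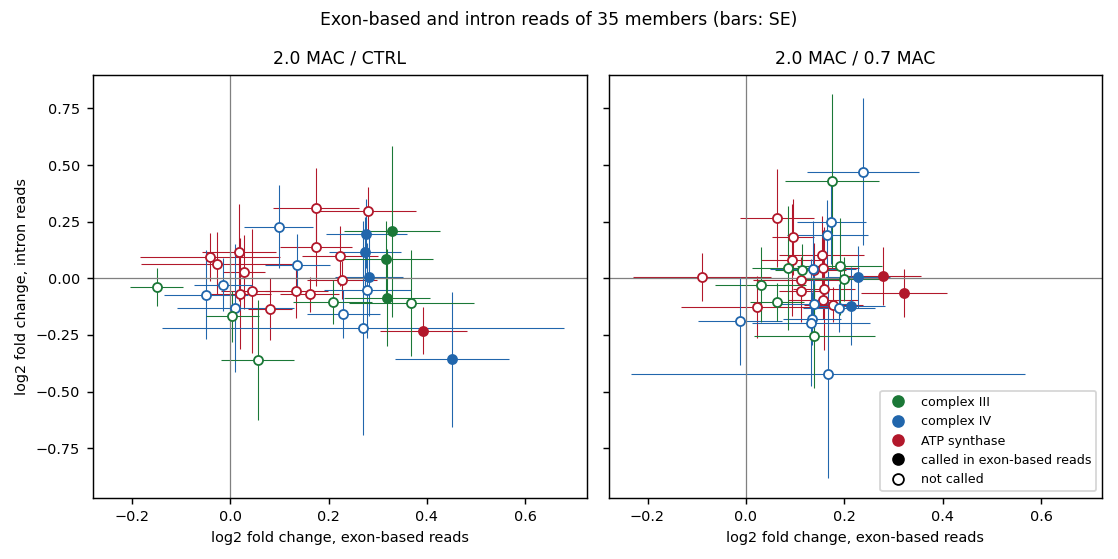
Log2 fold change in intron reads (y axis) against that in exon-based reads (x axis) for the 35 members tested in both, for 2.0 MAC against CTRL and 2.0 MAC against 0.7 MAC; bars are SE and filled points passed the test in exon-based reads. Most points lie right of 0 on the x axis (30 and 33 of 35, medians 0.17 and 0.14), and they lie on both sides of 0 on the y axis (medians -0.04 and -0.0030).

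Of the subunits of these complexes, 6 are encoded in mitochondrial DNA. Those counted from mostly unique reads did not pass the test in any comparison. The unique share was 99.9% for mt-Cytb, 100% for mt-Atp8 and 65.3% for mt-Co1, whose counts are thus less certain. In these counts mt-Co1, the catalytic subunit of complex IV, averaged 7573 ± 183 CPM in 2.0 MAC and 7269 ± 161 CPM in CTRL (log2 fold change 0.06, adjusted p = 0.446). For mt-Cytb of complex III and mt-Atp8 of the ATP synthase the log2 fold changes were 0.02 (adjusted p = 0.872) and 0.08 (adjusted p = 0.737). For mt-Co2, mt-Co3 and mt-Atp6 only 0.145%, 0.126% and 0.460% of the exon reads were unique. In exon-based reads mt-Co2 was called lower in 2.0 MAC (3.13 ± 1.10 CPM, against 9.03 ± 1.41 CPM in CTRL, log2 fold change -1.56, adjusted p = 0.00182) and in 0.7 MAC (-1.46, adjusted p = 0.0160), and mt-Atp6 was called lower in 2.0 MAC against CTRL (-0.97, adjusted p = 0.0364). With all exon reads counted, 20036 to 25977 per library for mt-Co2, its log2 fold change was 0.12 for 2.0 MAC against CTRL and 0.04 for 0.7 MAC against CTRL, and that of mt-Atp6 was 0.08. The direction of these calls therefore depends on how reads with several matches were counted.

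Single genes around the 3 complexes passed the test. Of all tested genes, 3.36% were called higher and 6.42% lower between 2.0 MAC and CTRL. Between 2.0 MAC and 0.7 MAC the shares were 5.98% and 8.73%, and between 0.7 MAC and CTRL 0.884% and 0.743%. The counts in these short lists are not read as differing from those shares. Of 8 subunits and partners outside the name pattern, Atpif1, which inhibits ATP hydrolysis by the ATP synthase, rose between 2.0 MAC and CTRL (log2 fold change 0.37, adjusted p = 0.0426), with 3 of the 8 higher at an unadjusted p under 0.05. Uqcc2 rose (0.29, adjusted p = 0.0422) among 6 assembly factors of complex III, and edgeR called 0 of 22 tested assembly factors of complex IV in any comparison (2 higher between 2.0 MAC and 0.7 MAC and 1 lower between 0.7 MAC and CTRL at an unadjusted p under 0.05, the count by DESeq2 not taken). Atpaf1, an assembly factor of the F1 head, rose between 2.0 MAC and 0.7 MAC (0.27, adjusted p = 0.0294) among 4 such factors, and so did Sdha, the flavoprotein of complex II (0.16, adjusted p = 0.0345), among 4 subunits. Of 14 regulators of mitochondrial biogenesis, Esrrg, a nuclear receptor, rose in 2.0 MAC against 0.7 MAC (0.39, adjusted p = 0.00231) and against CTRL (0.26, adjusted p = 0.0422).

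Markers of brain regions and cell types moved with the groups. In bulk tissue, a different extent of the dissected pieces, fewer cells of a type and less RNA per cell cannot be told apart. Between 2.0 MAC and 0.7 MAC, 9 of 15 cortex and hippocampus markers fell (summed level 1182 to 1412 CPM in 2.0 MAC, against 2251 to 2905 CPM in 0.7 MAC), and 14 of 15 striatum markers fell (949 to 1080 CPM, against 1617 to 2513 CPM). Oligodendrocyte markers rose in 11 of 12 (10139 to 12239 CPM in 2.0 MAC, against 7516 to 8877 CPM in 0.7 MAC), thalamus markers in 7 of 10, hindbrain markers in 6 of 9 tested and hypothalamus markers in 8 of 15 tested, with 1 lower. Of 10 markers each, astrocytes had 6 higher and 2 lower, parvalbumin neurons 4 and 1, neurons 3 and 2, endothelium 1 and 0, microglia 0 and 0 and choroid plexus 0 and 2, and pericytes had 1 and 0 of 8 tested. The sums of astrocyte and neuron markers went the other way. Astrocyte markers summed to 5871 to 6199 CPM in 2.0 MAC, 6319 to 7210 CPM in 0.7 MAC and 6386 to 7025 CPM in CTRL. Neuron markers summed to 6404 to 6588, 6610 to 7043 and 6673 to 7060 CPM in the same order. Parvalbumin neuron markers summed to more in 2.0 MAC (2058 to 2119 CPM, against 1545 to 1762 CPM in 0.7 MAC). Between 2.0 MAC and CTRL, 14 of 15 striatum markers fell (CTRL sum 2078 to 2549 CPM), as did 5 of 15 cortex and hippocampus markers (CTRL sum 1838 to 2537 CPM). Thalamus markers rose in 4 of 10, hindbrain markers in 4 of 9 tested and oligodendrocyte markers in 1 of 12 (CTRL sum 9334 to 10711 CPM), and of 15 hypothalamus markers 3 were higher and 1 lower. Astrocytes and parvalbumin neurons each had 3 markers higher and 1 lower, neurons and endothelium each 1 higher and 2 lower, and microglia 1 lower. Between 0.7 MAC and CTRL, 5 of 12 oligodendrocyte, 3 of 10 thalamus, 2 of 10 endothelial and 1 of 9 hindbrain markers fell, and 2 of 15 cortex and hippocampus markers rose. The hypothalamus markers, 17 in all with none at 0 in the table, summed to 142 to 159 CPM in CTRL, 120 to 143 CPM in 0.7 MAC and 175 to 182 CPM in 2.0 MAC. The part of these shifts in the members' differences was not tested.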

How the data were processed

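Ribosomal RNA was depleted and libraries were made with a strand-keeping kit. The authors mapped and counted the reads in CLC Genomics Workbench 23.0.5 against GRCm38 (mm10) and deposited whole-number counts of reads per gene, split by exon, intron and uniqueness, beside RPKM. The deposited RPKM follows all exon reads, those with several matches included, over the merged exon length. The table also holds the authors' fold changes and p-values, which were not used. Of 198 per-sample columns 125 were not used, 54 of them measurements.

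Exon-based reads (headed expression values in the table) were analyzed in edgeR 4.0.16 (R 4.3.3): filterByExpr at a minimum count of 10, TMM scaling, 1 fit of all 9 libraries with group as the only factor, the quasi-likelihood test and Benjamini-Hochberg adjustment over 14140 tested genes. A member was called at an adjusted p under 0.05. DESeq2 1.42.0, limma 3.58.1 on log2(RPKM + 0.1) and log2(RPKM + 1), other scalings, filters and read classes, a replicate block and leaving out each library were alternatives, and unique and total exon reads were added after seeing the data. Whether each library is a separate mouse is not stated, so p-values measure the spread between libraries. Libraries of a group differed beyond sampling noise (chi-square per degree of freedom 1.56 to 5.00). Same-numbered libraries did not deviate together (correlations of deviations -0.203 to 0.000717). On simulated data, 1.2-fold changes were called in 20% of genes between 2.0 MAC and CTRL and 1.5-fold changes in 54%, with 10 false calls among 135 over 13995 genes. For 2.0 MAC against 0.7 MAC the shares were 18% and 74% (7 false calls among 146 over 13974 genes). Sequences came from RefSeq (GRCm38.p6) and mRNA lengths from GENCODE M21.

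The members and the gene lists were chosen with earlier results of these data known. Named are the members called in any comparison, tissue isoforms, the highest and lowest member of each complex by RPKM, those next to the read minimum, the mitochondrial partners and, of each list, up to 4 genes with the smallest adjusted p. Members named outside this rule were chosen after their values were seen.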

Additional observations from a re-analysis of the deposited data

How the results depend on the processing

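The members' medians stayed positive in both comparisons of 2.0 MAC except in intron reads, while the counts of called members moved. Between 2.0 MAC and 0.7 MAC (4 called higher) the count was 8 with upper-quartile scaling, 2 with total gene reads, 0 with intron reads, 18 and 19 with limma on log2(RPKM + 0.1) and log2(RPKM + 1), 0 at a 2-fold threshold and 0 to 4 with each library left out. Calls over all genes moved as well. In the main fit 845 of 14140 were higher, with upper-quartile scaling 1128, and with limma 1705 and 1739. They were 1069 of 18568 with total gene reads, 492 of 16142 with intron reads and 497 to 865 with each library left out. The members' median (0.14) was -0.0030 in intron reads and 0.10 to 0.17 with each library left out. With limma it was 0.24 and 0.23, where the median of all genes also shifted by 0.09 and 0.06. Between 2.0 MAC and CTRL (8 called higher) the count was 5 with DESeq2, 14 without a filter on low counts, 5 with the replicate block, 0 with intron reads, 13 with either limma setting, 0 at a 2-fold threshold and 1 to 12 with each library left out. Over all genes 475 of 14140 were higher in the main fit, 331 with DESeq2, 350 with the replicate block, and 810 and 826 with limma. They were 717 of 22435 without a filter, 667 of 16142 with intron reads and 189 to 588 with each library left out. The members' median (0.19) was -0.039 in intron reads, 0.27 with limma on log2(RPKM + 0.1), and 0.15 to 0.22 with each library left out. Between 0.7 MAC and CTRL (0 called) 1 member was higher with unique gene reads (Atp5l) and 1 lower with upper-quartile scaling, without a filter, or without CTRL replicate 1 (Uqcrc2; 0 to 1 with each library left out). Over all genes 359 of 17015 were higher with unique gene reads. Lower were 126 of 14140 with upper-quartile scaling, 327 of 22435 without a filter and 174 of 14361 without CTRL replicate 1. Same-numbered libraries share only a number, so the loss of calls under the replicate block is not read as a weaker effect.

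In intron reads the direction turned for Atp5j2 (-0.064) and Cox4i1 (-0.12) between 2.0 MAC and 0.7 MAC and for Atp5j2 (-0.23), Cox5b (-0.36) and Uqcr10 (-0.086) between 2.0 MAC and CTRL. For 2.0 MAC against CTRL, mt-Co2 turned to 0.16 with total gene reads, 0.12 with total exon reads and 0.20 with either limma setting, and mt-Atp6 to 0.12, 0.083 and 0.16. For 0.7 MAC against CTRL, mt-Co2 turned to 0.025, 0.039 and 0.021 in the same settings. Of 276 alternative values of the called members, 271 kept the direction and 191 passed the test. Of 2324 values of members not called, 89 passed in an alternative. The cause of the other changes was not tested. In the simulated data most 1.2-fold changes were missed with 3 libraries a group. The changed genes there were drawn from all tested genes, not from the members. Fewer genes were called there than in the data: 135 between 2.0 MAC and CTRL, against 475 higher and 908 lower. The share of changes missed among the members therefore cannot be read from it.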
